A study of Mus musculus with 6 samples.

Results

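The response of mouse spleen to the lower of 2 doses of cadmium was examined by comparing the 2 bead arrays from animals given 5 µmol/kg cadmium chloride with the 2 arrays from animals given saline. The 4 arrays are part of a series of 6. Probes entered the comparison when at least 2 of the 6 arrays had detected them, detection meaning a deposited p-value below 0.05 against the background of the array. These were 18960 of 45281 probes, which stood for 10823 named genes and 2736 probes without a single gene symbol. The probe with the highest mean signal represents each gene below, and levels are normalized log2 signals.

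Cadmium is a toxic metal that cells bind with metallothioneins, small proteins whose genes are switched on by the zinc-sensing factor MTF1 at metal response elements. It also depletes glutathione and commonly induces haem oxygenase and other antioxidant enzymes. The spleen filters blood: macrophages of its red pulp clear old red cells, its white pulp holds B and T lymphocytes, and in mice it also makes red cells, granulocytes and platelets.

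All animals were ICR mice, an outbred stock, 28 days old. Each received 1 subcutaneous injection of 200 µL saline, without cadmium or with 5 or 10 µmol cadmium chloride per kg body weight, and the exposure lasted 24 h. The labels gave 7 to 8 animals per group but not how many animals an array stands for, nor their sex, so p-values measure only the spread between arrays, which may be technical. The arrays at 10 µmol/kg entered the normalization, the detection filter, the choice of each gene's probe and the fit of the spread. These 2 arrays are also compared with each other for the same genes.

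A gene of red cells and a gene of B cells were bright on all 6 arrays. The red cell anion exchanger Slc4a1 read at least 14.28 and the B cell receptor chain Cd79b at least 11.18. The arrays also carried genes of the exocrine pancreas, which adjoins the spleen. All 28 measured acinar genes were detected on saline array 2 and on both arrays at 5 µmol/kg, with mean levels of 12.40, 11.96 and 11.01, against 8 detected genes and a mean of 4.77 on saline array 1. At 10 µmol/kg, array 1 was low in these genes (mean 4.98, 13 detected) and array 2 high (11.72, 28 detected). Their summed deposited signal was 479 and 246610 units on the saline arrays and 201140 and 115250 units on the arrays at 5 µmol/kg. The saline group therefore held 1 array with little and 1 with much acinar signal, while both cadmium arrays had much.

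No probe passed. In limma's moderated test 0 of 18960 probes (0%) had an adjusted p under 0.05 for 5 µmol/kg against saline, the smallest adjusted p being 0.492. At an unadjusted p under 0.05 there were 1089 probes higher (5.74%) and 805 lower (4.25%), or 9.99% together. These counts fell to 163 and 77 without array 1 at 5 µmol/kg, to 657 and 345 without array 2, and to 672 and 316 without saline array 1. Without saline array 2 they were 1330 and 1789. An exact permutation test of 2 against 2 arrays cannot give a two-sided p under 0.333. No gene named below passed, and the values that follow describe levels on each array.

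Across the 18960 probes the median difference between 5 µmol/kg and saline was 0.0079 on the log2 scale, with a median size of 0.30. The arrays within a group differed by a median size of 0.36 for saline and 0.23 for 5 µmol/kg. The difference between group means exceeded both within-group differences for 6282 probes (33.1%). Both cadmium arrays lay above both saline arrays for 4579 probes (24.2%) and below both for 4572 (24.1%). Differences larger than 1 on the log2 scale were found for 618 probes higher and 775 lower. The array nearest to saline array 1 across all probes was not the other saline array but array 1 at 10 µmol/kg (Pearson's r = 0.979 against 0.924). The 2 arrays at 5 µmol/kg had r = 0.981 with each other, and array 2 at that dose had r = 0.987 with array 2 at 10 µmol/kg. These correlations are across probes, which are not independent replicates.

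The genes with the widest separation between the groups were taken as the 12 in each direction with the largest distance between the nearest arrays of opposite groups, among 8322 genes detected on all 4 arrays. Of those genes, 1842 (22.1%) had both cadmium arrays above both saline arrays and 2101 (25.2%) below. The 24 genes were chosen for this separation, so their levels are a description. The distance was 1.12 to 1.62 for the higher genes and 1.20 to 1.75 for the lower genes on the log2 scale.

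On the higher side, Rpl7a, a protein of the large ribosomal subunit, had levels of 8.44 and 8.60 on the saline arrays and 10.33 and 10.21 at 5 µmol/kg (log2 difference 1.75 ± 0.35 SE, n = 2 arrays per group, limma adjusted p = 0.492). Ms4a3, a membrane protein of granulocyte and monocyte precursors, read 5.87 and 5.56 with saline and 7.68 and 7.24 with cadmium (1.74 ± 0.40). Atp5pb, the b subunit of ATP synthase, read 8.58 and 8.55 with saline and 10.18 and 9.77 with cadmium (1.41 ± 0.31). In these 3 genes the cadmium arrays stood 1.19 or more above the saline arrays. At 10 µmol/kg the array with little acinar signal read below the other for each of them, at 9.21 and 10.18 for Rpl7a, 6.72 and 7.80 for Ms4a3, and 9.01 and 9.71 for Atp5pb. The chromatin protein Rbbp7, which binds histones in several complexes, read 6.92 and 6.78 with saline and 8.86 and 8.27 with cadmium (1.72 ± 0.55). Acaa2, the thiolase of the last step of mitochondrial fatty acid oxidation, read 6.98 and 7.36 with saline and 9.11 and 8.58 with cadmium (1.68 ± 0.45). Mzt1, part of the complex from which microtubules start, read 7.39 and 7.40 with saline and 8.90 and 8.61 with cadmium (1.36 ± 0.32). For Acaa2 the 3 other probes lay on the same side (0.56 to 1.61), and for Rbbp7 2 of the 3 others did (1.63 and 1.74), while a dim one differed by −0.12.

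The other 6 were Ogfrl1, the RNA helicase Ddx5, the ubiquitin ligase Rnf114, the endosomal adaptor Tom1l1, Ggact, which breaks down gamma-glutamyl amines, and the purine synthesis enzyme Adss. Their differences ran from 1.22 ± 0.32 for Ggact to 1.72 ± 0.43 for Tom1l1. For Ddx5, with levels of 5.36 and 5.31 against 7.02 and 6.55, the 95% interval of the difference was −0.06 to 2.96, the only one among the 12 that held 0. An unadjusted p under 0.05 in limma's test was found for 11 of the 12. Such p-values and intervals follow in part from choosing the genes by separation on these same arrays. Over all 10823 genes, 944 had such a p in either direction. The median difference of the 12 was 1.46 with all arrays and 1.57 without saline array 1.

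On the lower side the saline arrays lay far apart. Erich5 read 10.69 and 9.14 with saline and 7.25 and 7.39 with cadmium (log2 difference −2.59 ± 0.92 SE). Dock10, an exchange factor for small GTPases in lymphocytes, read 9.42 and 7.09 with saline and 5.48 and 5.51 with cadmium (−2.76 ± 1.10). Nktr, a large protein with a cyclophilin domain, read 8.53 and 6.72 with saline and 5.19 and 5.06 with cadmium (−2.50 ± 1.11). Saline array 1 was the higher of the saline arrays for all 12 genes, by a median of 1.62, while the cadmium arrays differed by a median of −0.088. Zfp869, a zinc finger protein, was the exception in spread, with saline levels of 8.23 and 8.16 against 6.09 and 6.76 at 5 µmol/kg (−1.77 ± 0.45), although its 3 other probes differed by only −0.11 to −0.56. Srr, which makes D-serine, read 11.77 and 10.59 with saline and 9.05 and 9.26 with cadmium (−2.03 ± 0.70). Sox6, a transcription factor of red cell maturation, read 8.38 and 7.43 with saline and 6.18 and 6.0 with cadmium (−1.82 ± 0.84).

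The other 6 lower genes were the phospholipase Ddhd1, the microtubule proteins Clasp2 and Arhgef2, the membrane protease Rhbdl2, Tmem164, and Ccnt2, the cyclin of a kinase that releases paused RNA polymerase. Their differences ran from −2.56 ± 1.02 for Tmem164 to −2.04 ± 0.76 for Rhbdl2. Another probe differed in the opposite direction for Ddhd1 (0.55 ± 0.31) and for Tmem164 (0.07 ± 0.29), and 2 dimmer probes of Ccnt2 differed by −0.37 and −0.16. An unadjusted p under 0.05 in limma's test was found for 9 of the 12 lower genes, which were likewise chosen by separation on these arrays. Their median difference was −2.23 with all arrays and −1.51 without saline array 1. With the acinar mean of each array as a covariate it was −1.41, and that of the 12 higher genes was 1.27 in place of 1.46.

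**Figure D1:**
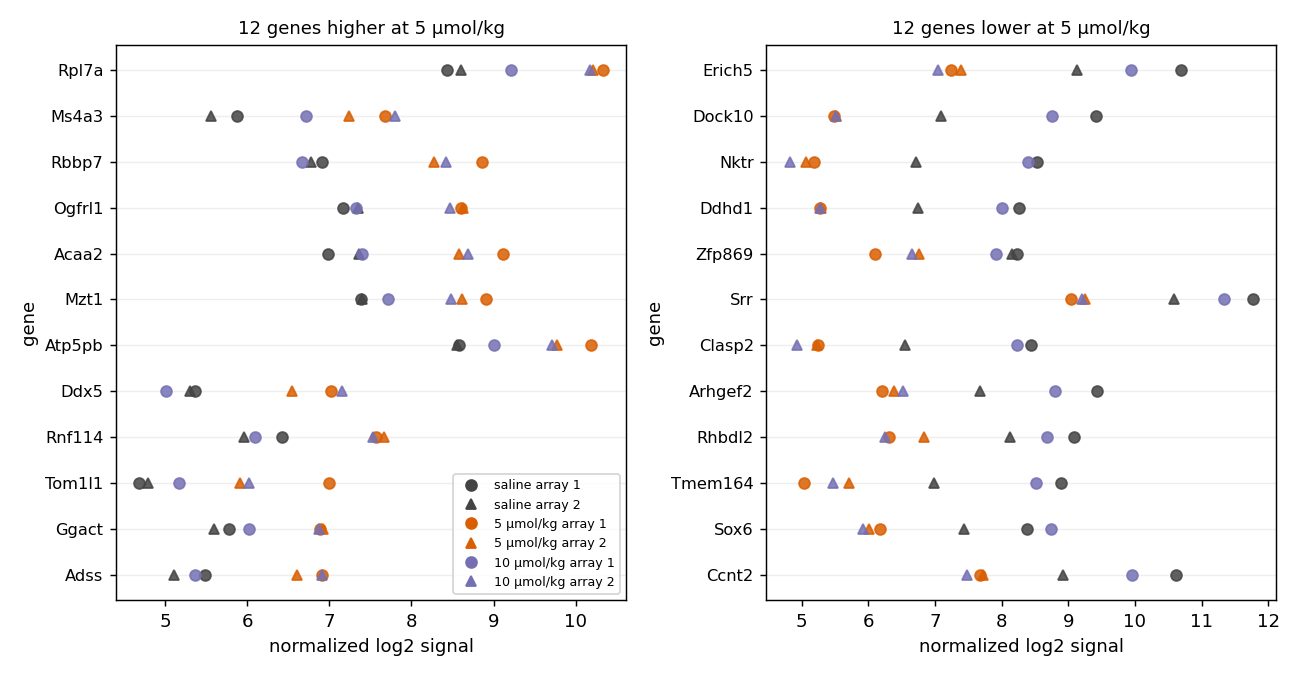
Normalized log2 signal (horizontal axis) of the 12 genes with the widest separation in each direction (rows), with 1 point per array: circles are arrays 1 and triangles arrays 2 of each group. The lower genes show saline array 1 and array 1 at 10 µmol/kg together at the right, while the cadmium arrays at 5 µmol/kg and array 2 at 10 µmol/kg lie together at the left.

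The same 24 genes separated the 2 arrays of the other dose. Those arrays entered the normalization, the detection filter and the choice of each gene's probe, but not the ranking by separation. At 10 µmol/kg, array 1 read above array 2 for all 12 lower genes, by 1.27 to 3.58 (median 2.78), and below array 2 for all 12 higher genes, by a median difference of −1.11. Dock10 read 8.75 on array 1 and 5.52 on array 2, and Rpl7a read 9.21 and 10.18. Among the 2101 genes whose cadmium arrays at 5 µmol/kg lay below saline, 76.3% had their higher level on array 1 of the pair at 10 µmol/kg, against 47.8% of all genes. Among the 1842 genes that lay above, 80.1% were dimmer on array 1, against 52.1% of all genes. Over the 8322 genes detected on all 4 arrays the difference of 5 µmol/kg from saline and that between the 2 arrays at 10 µmol/kg had Pearson's r = −0.60, and r = −0.58 over 8314 genes without the acinar list. These are correlations across genes with no array in common, but array 1 at 10 µmol/kg and saline array 1 share a low acinar signal. The part of pancreatic tissue, or of whatever goes with it, in the difference between 5 µmol/kg and saline was not tested.

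**Figure D2:**
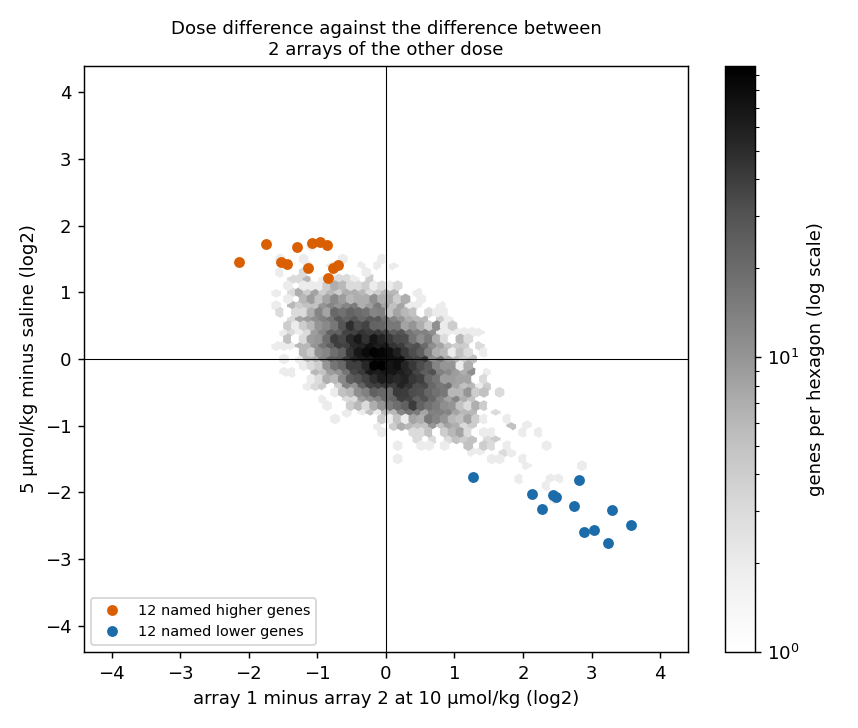
Each gene detected on the 4 saline and 5 µmol/kg arrays is placed by the difference between arrays 1 and 2 at 10 µmol/kg (horizontal axis, log2) and by the difference between 5 µmol/kg and saline (vertical axis, log2), with values beyond 4 drawn at 4. Grey shades count genes; the 12 named higher genes lie at the upper left and the 12 named lower genes at the lower right.

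Promoter sequences were read for genes that carry these differences, from 250 bases before to 50 bases after the RefSeq start site on GRCm38.p6, on the gene's own strand, with the first listed start of each gene. Of the 24 genes, 10 of the higher and 11 of the lower ones had an entry. Ms4a3 (chr19:11640802-11641101, minus strand) and Ccnt2 (chr1:127773914-127774213, plus strand) are shown because no higher or lower gene, respectively, held more kinds of searched motif than their 2 (Rbbp7 and Nktr also held 2), and capitals mark the matches.
Ms4a3: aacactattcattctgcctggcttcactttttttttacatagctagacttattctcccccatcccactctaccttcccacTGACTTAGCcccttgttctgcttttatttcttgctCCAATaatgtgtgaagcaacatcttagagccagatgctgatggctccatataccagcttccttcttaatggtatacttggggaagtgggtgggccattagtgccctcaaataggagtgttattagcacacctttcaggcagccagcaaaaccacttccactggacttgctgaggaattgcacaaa
Ccnt2: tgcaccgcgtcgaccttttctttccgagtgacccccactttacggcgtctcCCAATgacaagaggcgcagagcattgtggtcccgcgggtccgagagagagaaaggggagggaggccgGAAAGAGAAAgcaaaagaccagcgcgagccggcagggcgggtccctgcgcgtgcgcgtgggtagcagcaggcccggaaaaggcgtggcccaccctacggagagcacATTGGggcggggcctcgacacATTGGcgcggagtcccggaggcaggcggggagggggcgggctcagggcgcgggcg
Ms4a3 held an antioxidant response element core (TGACNNNGC) and a CCAAT box (CCAAT). Ccnt2 held 3 CCAAT boxes, of which 2 on the other strand, and an interferon-stimulated response element core (GAAA, any 2 bases, GAAA). Both strands were searched. The CCAAT box was present in 4 of the 10 higher and 3 of the 11 lower promoters, and in 37.9% of 27025 promoters of the same length and 38.7% of the 8753 of measured genes. The metal response element core (TGCACNC or TGCGCNC) was present in 3 of 10 and 3 of 11, in 25.6% of all and in 35.1% of those of measured genes. The antioxidant core was present in 2 of 10 and 1 of 11 (12.5% of all, 14.4% of measured), and the interferon core in 0 of 10 and 1 of 11 (3.5% and 3.3%). The E-box (CACGTG) was present in 1 of 10 and 0 of 11 (7.2% and 9.9%), the E2F cores (TTTCCCGC or TTTGGCGC) in 0 of 10 and 1 of 11 (1.6% and 3.0%), and the GATA cores (AGATAA or TGATAA) in none of the 21 (19.0% and 11%). A match is a run of letters and not a shown binding site.

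Some genes were detected in only 1 of the groups. There were 106 genes detected on both cadmium arrays with no probe detected on either saline array, and 285 detected on both saline arrays with no probe detected on either cadmium array. Saline array 1 had 18561 detected probes and the other 3 arrays had 16265 to 16422, so the detection limit was lowest there. Differences of such genes are lower bounds, with the detection limit in place of a dimmer signal. The bound exceeded 1-fold for all 106 of the former and for 244 of the 285. It exceeded 1.5-fold for only 3 and 33 of them. On the higher side they were small: at least 1.76-fold for Bet1, which guides vesicles from the endoplasmic reticulum to the Golgi, and at least 1.73-fold for Sec23a, of the coat of these vesicles. Tor3a, the sulfate transporter Slc26a1 and the signalling inhibitor Smad6 followed with at least 1.62-fold, 1.49-fold and 1.48-fold. On the lower side Hspa4l, a chaperone of the HSP110 family, was at least 3.13-fold lower, with saline levels of 6.75 and 6.06. Dock2, which drives lymphocyte migration, was at least 2.90-fold lower, but its saline levels were 7.75 and 4.85. The lysosomal fucosidase Fuca1 (6.58 and 5.99), the integrin chain Itgav (6.49 and 5.54) and Ackr3, a receptor that scavenges the chemokine CXCL12 (6.69 and 5.32), were at least 2.87-fold, 2.39-fold and 2.37-fold lower. None of these 10 genes passed in limma's test (lowest adjusted p = 0.492).

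The metallothioneins and haem oxygenase did not separate the groups. Mt1, the main metallothionein on these arrays, read 11.48 and 13.17 with saline and 12.23 and 12.36 with cadmium, so both cadmium arrays lay between the saline arrays. Its difference was −0.03 ± 0.51 SE, with a 95% interval of −1.25 to 1.20. Mt2, measured by a dim probe detected on only 1 saline array, read 4.63 and 5.58 with saline and 5.35 and 4.81 with cadmium. The haem oxygenase Hmox1 read 8.59 and 8.97 with saline and 9.19 and 8.90 with cadmium (0.26 ± 0.30), with overlapping groups. The factor that switches on metallothioneins, Mtf1, read 6.35 and 6.89 with saline and 7.31 and 7.13 with cadmium (0.60 ± 0.29). The zinc and cadmium importer Slc39a8 lay near the detection limit and was detected on only 1 saline array, at 4.56 and 4.75 with saline and 5.06 and 5.08 with cadmium (0.41 ± 0.23). Mtf1 and Slc39a8 were the 2 of 8 measured genes of metal handling whose groups did not overlap, against 21.1% of all genes for this direction. The list median was 0.28, and −0.03 without saline array 1, beside a median of −0.013 over all genes. The Mt1 promoter (chr8:94178839-94179138, plus strand) is shown as the textbook cadmium target, with the metal response element cores in capitals.
Mt1: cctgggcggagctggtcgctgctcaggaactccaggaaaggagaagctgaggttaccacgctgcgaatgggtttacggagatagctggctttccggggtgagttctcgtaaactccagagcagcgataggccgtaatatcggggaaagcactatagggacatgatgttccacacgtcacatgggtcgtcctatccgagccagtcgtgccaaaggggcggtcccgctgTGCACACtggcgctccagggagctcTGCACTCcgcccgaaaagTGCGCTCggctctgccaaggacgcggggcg
It held 3 matches, of which the first begins 23 bases before the start site.

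Antioxidant genes of the NRF2 and glutathione list had 16 of 21 members above saline, where 48.6% of all genes were, with a median of 0.14. Of these, 2 had an unadjusted p under 0.05, where 4.23% of all genes were higher at that level. Nqo1, a quinone reductase and standard NRF2 target, read 5.31 and 5.98 with saline and 7.14 and 6.24 with cadmium (1.04 ± 0.38). Catalase, Cat, read 5.68 and 6.65 with saline and 7.48 and 7.15 with cadmium (1.15 ± 0.48). In both genes the dimmest array was saline array 1. Without that array 9 of 21 members lay above saline, none with an unadjusted p under 0.05, and the median was −0.069.

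Of the chaperones of the heat shock list, 0 of 11 lay apart on the higher side and 4 of 11 on the lower side (24.7% of all genes). Hsph1, a partner of HSP70, read 7.76 and 7.73 with saline and 7.06 and 6.87 with cadmium (−0.78 ± 0.23). Chordc1, which binds HSP90, read 8.93 and 8.74 with saline and 8.18 and 7.65 with cadmium (−0.92 ± 0.27). The saline arrays agreed closely for these 2 genes, which were the list's 2 lower members at an unadjusted p under 0.05 (4.49% of all genes were lower at that level). The list median was −0.090, and −0.18 to −0.080 when any 1 of the 4 arrays was left out.

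Among p53 targets and BCL2-family genes, 12 of 17 members lay above saline, with a median of 0.22. Gadd45a, a growth-arrest gene induced by DNA damage, read 9.58 and 9.69 with saline and 10.59 and 10.33 with cadmium (0.83 ± 0.24). The survival protein Mcl1 read 10.61 and 10.33 with saline and 9.69 and 9.92 with cadmium (−0.66 ± 0.26). These 2 were the list's members with an unadjusted p under 0.05, 1 in each direction. Of all genes, 4.23% were higher and 4.49% lower at that level. Of 13 inflammatory genes, 7 lay above saline (median 0.065), among them Il1b, which read 5.70 and 5.07 with saline and 6.26 and 6.09 with cadmium. Tnf, the other cytokine with an unadjusted p under 0.05, lay the other way, at 5.58 and 5.44 with saline and 4.91 and 4.52 with cadmium, where 1 array detected it.

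Red cell genes read higher on the cadmium arrays, by less when saline array 1 was left out. The erythroid list had 18 of 23 members above saline (median 0.44), 10 with both cadmium arrays above both saline arrays (21.1% of all genes) and 6 with an unadjusted p under 0.05 (4.23% of all genes). Rhag, a subunit of the Rh complex of the red cell membrane, read 7.80 and 7.90 with saline and 9.90 and 9.0 with cadmium (1.60 ± 0.35). Tspo2, a membrane protein of maturing red cells, read 8.58 and 9.27 with saline and 10.29 and 9.99 with cadmium (1.21 ± 0.31). Car1, a carbonic anhydrase of red cells, read 8.98 and 10.56 with saline and 12.05 and 11.12 with cadmium (1.82 ± 0.62). Array 1 at 5 µmol/kg was the higher cadmium array in all 3, and saline array 1 the lower saline array. Hba-a1, a globin and among the brightest members, lay slightly lower with cadmium, at 14.39 and 14.26 with saline and 14.20 on both cadmium arrays. Without saline array 1, 12 of 23 members lay above saline, 3 with an unadjusted p under 0.05, and the median was 0.041, against 0.89 without saline array 2. Over all arrays the list's mean level was 9.70 and 10.33 for saline, 10.69 and 10.36 at 5 µmol/kg, and 10.54 and 10.04 at 10 µmol/kg. Beside this difference, the acinar mean was 4.77 and 12.40, 11.96 and 11.01, and 4.98 and 11.72 on the same arrays, so the erythroid level at 10 µmol/kg was higher on the array with little acinar signal. In bulk tissue, a change in the number of cells of a type and a change in RNA per cell cannot be told apart.

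Haem synthesis was split. Its list had 5 of 12 members above saline and a median of −0.072. Fech, which inserts iron in the last step, read 7.70 and 8.63 with saline and 9.70 and 9.83 with cadmium (1.60 ± 0.39), and Cpox, an earlier mitochondrial enzyme, read 4.31 and 5.29 with saline and 6.88 and 5.70 with cadmium (1.48 ± 0.50). Of the 2 other Fech probes, 1 differed by 1.77 ± 0.49 and a dim one by 0.16 ± 0.27. Cpox was detected on only 1 saline array. Fech and Cpox were the list's 2 higher members at an unadjusted p under 0.05 (4.23% of all genes), and 4 of the 12 lay apart on the lower side (24.7% of all genes).

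For genes of DNA replication and mitosis saline array 1 was the lowest array, as it was for the erythroid list. Their mean level was 7.88 and 8.79 with saline and 9.04 and 8.59 at 5 µmol/kg, so that saline array 2 lay within the cadmium range. Of 36 members, 32 lay above the saline mean and 11 lay apart (21.1% of all genes). Ccne2, the cyclin that starts DNA synthesis, read 5.45 and 5.85 with saline and 7.66 and 6.72 with cadmium (1.54 ± 0.39). Aurkb, a kinase of chromosome segregation, read 7.11 and 8.02 with saline and 8.88 and 8.67 with cadmium (1.22 ± 0.34), and Cdk1, the mitotic kinase, read 8.54 and 9.20 with saline and 10.13 and 9.71 with cadmium (1.05 ± 0.31). These genes stood above both saline arrays. The median of the list was 0.43, −0.13 without saline array 1, where 15 of 36 lay above saline, and 0.96 without saline array 2.

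Protein and energy machinery lay slightly above saline. Of 59 subunits of oxidative phosphorylation, 50 lay above the saline mean and 29 had both cadmium arrays above both saline arrays, where 21.1% of all genes did, while 2 lay below. Ndufs4, of complex I, read 8.69 and 9.0 with saline and 9.75 and 9.62 with cadmium (0.84 ± 0.30). The list median was 0.35, and 0.14 without saline array 1, where 38 of 59 lay above. Of 30 proteasome subunits, 22 lay above saline. On the higher side 14 lay apart (21.1% of all genes) and on the lower side 2 (24.7% of all genes). The 2 brightest subunits lay apart in opposite directions, Psmb4 higher (0.27 ± 0.25) and Psmd4 lower (−0.42 ± 0.29). Psmd12, of the regulatory lid, read 7.64 and 7.95 with saline and 8.89 and 8.82 with cadmium (1.06 ± 0.30), and Psma7, of the core, read 9.83 and 9.73 with saline and 10.52 and 10.40 with cadmium (0.68 ± 0.27). The proteasome median was 0.23, and 0.071 without saline array 1. Among 47 cytosolic ribosomal proteins the median was only 0.094, so that Rpl7a lay far from the rest. Rpl24, another protein of the large subunit, read 10.75 and 11.01 with saline and 11.64 and 11.66 with cadmium (0.77 ± 0.32).

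**Figure D3:**
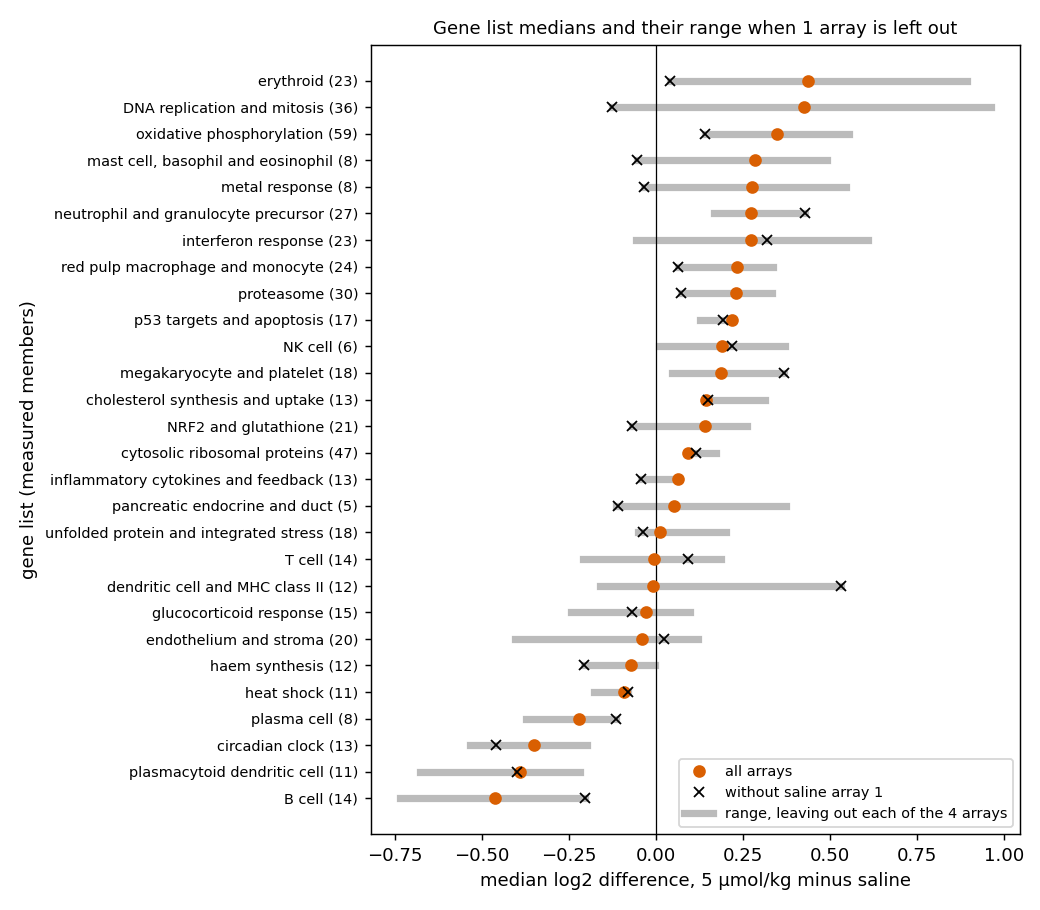
Median log2 difference between 5 µmol/kg and saline (horizontal axis) for each gene list with at least 5 measured members (rows, member count in brackets), leaving out the acinar list. Circles use all arrays, crosses leave out saline array 1, and grey bars span the fits that leave out each of the 4 arrays. Many lists keep 1 sign in each of these fits. Among those below 0 are B cells, plasmacytoid dendritic cells, plasma cells, heat shock and the circadian clock. Among those above 0 are erythroid, neutrophil, proteasome and respiration genes.

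Granulocyte precursor genes read higher with cadmium, and more so without saline array 1. The neutrophil and granulocyte precursor list had 19 of 27 members above saline, with a median of 0.27 and, without saline array 1, of 0.43. On the higher side 11 lay apart (21.1% of all genes) and on the lower side 2 (24.7% of all genes). Those apart on the higher side included the proteases of primary granules, which are made early in granulocyte maturation. Elane, neutrophil elastase, read 9.29 and 8.21 with saline and 10.09 and 10.13 with cadmium (1.36 ± 0.38). Ctsg, cathepsin G, read 7.89 and 8.35 with saline and 9.43 and 9.33 with cadmium (1.26 ± 0.39), and Prtn3, proteinase 3, read 9.75 and 9.07 with saline and 10.24 and 10.33 with cadmium (0.88 ± 0.29). With Ms4a3 and the neutrophil protein Retnlg (8.01 and 8.31 against 8.79 and 9.53) these were the 5 members with an unadjusted p under 0.05 (4.23% of all genes), and 6 had one without saline array 1. All 5 read above both saline arrays on each cadmium array, and in the saline pair the array with little acinar signal was the higher one for Ms4a3, Elane and Prtn3 and the lower one for Ctsg and Retnlg. S100a8, a calcium-binding protein of mature neutrophils, read 13.25 and 12.94 with saline and 13.31 and 13.42 with cadmium (0.27 ± 0.24). Ltf, which with S100a8 made up the 2 brightest members, lay the other way. It read 12.52 and 11.89 with saline and 11.55 and 12.09 with cadmium (−0.38 ± 0.32), with overlapping groups.

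Of the red pulp macrophage and monocyte list, 16 of 24 members lay above saline and 8 lay apart (21.1% of all genes), with 0 apart on the lower side (24.7% of all genes). Ms4a6d read 5.35 and 6.47 with saline and 7.35 and 7.25 with cadmium (1.40 ± 0.41), and the complement chain C1qb read 9.74 and 9.91 with saline and 10.35 and 10.41 with cadmium (0.56 ± 0.23). The 2 brightest members, Lyz1 (−0.05 ± 0.26) and Vcam1 (−0.16 ± 0.29), differed slightly in the other direction, with overlapping groups. The list median was 0.23, and 0.063 without saline array 1. Platelet genes had 11 of 18 members above saline, and Gp9, a chain of the platelet receptor for von Willebrand factor, read 9.36 and 9.07 with saline and 9.98 and 10.02 with cadmium (0.78 ± 0.24).

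B cell genes lay below saline. Of 14 measured members, 12 lay below the saline mean, 7 with both cadmium arrays below both saline arrays (24.7% of all genes) and 4 with an unadjusted p under 0.05 (4.49% of all genes). Both the 7 and the 4 include Cr2, which was detected on the saline arrays alone. It entered the filter only through the group where it read higher, so its lower reading with cadmium follows in part from the filter. Cd22, a receptor that restrains B cell activation, read 8.96 and 8.71 with saline and 7.04 and 7.83 with cadmium (−1.40 ± 0.34). Bcl6, the repressor that directs germinal centre B cells, read 8.67 and 8.59 with saline and 7.48 and 7.93 with cadmium (−0.92 ± 0.25). By these probes the saline arrays agreed for both genes, and array 1 at 5 µmol/kg was the lowest of the 4. The other Cd22 probe read 7.61 and 6.19 with saline and 6.39 and 6.89 with cadmium (−0.26 ± 0.47), with overlapping groups. The bright receptor chain Cd79b read 12.23 and 11.53 with saline and 11.18 and 11.78 with cadmium, with overlapping groups, and its other probe differed in the opposite direction. The list median was −0.46, and −0.20 without saline array 1. Beside it, the list's mean level was 8.68 and 8.28 with saline, 7.80 and 8.23 at 5 µmol/kg, and 8.13 and 8.10 at 10 µmol/kg.

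Genes of plasmacytoid dendritic cells, which make interferon when they sense viral nucleic acids, had 9 of 11 measured members below saline and 5 apart, against 24.7% of all genes. Siglech, their surface lectin, read 7.5 and 7.57 with saline and 6.11 and 6.32 with cadmium (−1.33 ± 0.28), with another probe opposite in sign. Tcf4, the transcription factor that defines them and is also present in B cells, read 11.07 and 10.20 with saline and 9.58 and 9.71 with cadmium (−0.99 ± 0.33). The median was −0.39, and −0.40 without saline array 1. Klk1, 1 of the 2 members above saline, belonged to the acinar list as well. Spib, which lay below saline (−0.52 ± 0.31), belonged to the B cell list as well.

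T cell, natural killer and MHC class II genes lay on both sides of saline. Plasma cell genes lay mostly below it, 6 of 8 (median −0.22). Of 14 T cell genes 7 lay above saline (median −0.0056). Of 6 natural killer genes 4 did, although the pore-forming protein Prf1 read 9.23 and 7.84 with saline and 6.67 and 6.90 with cadmium (−1.75 ± 0.62), and its other probe differed in the opposite direction. For MHC class II and dendritic cells, 6 of 12 genes lay above saline (median −0.0070). Their saline arrays disagreed: H2-Ab1, a class II chain, read 12.27 and 10.67 with saline and 11.80 and 12.33 with cadmium, and Cd74, the invariant chain, read 13.72 and 12.59 with saline and 13.00 and 13.12 with cadmium. Without saline array 1 the list median was 0.53, with 10 of 12 above saline, so its value depended on which saline array was used. Endothelial and stromal genes had 7 of 20 members above saline (median −0.039). Of 5 sex-linked genes 1 was measured, Kdm5d, near the detection limit on every array.

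**Figure D4:**
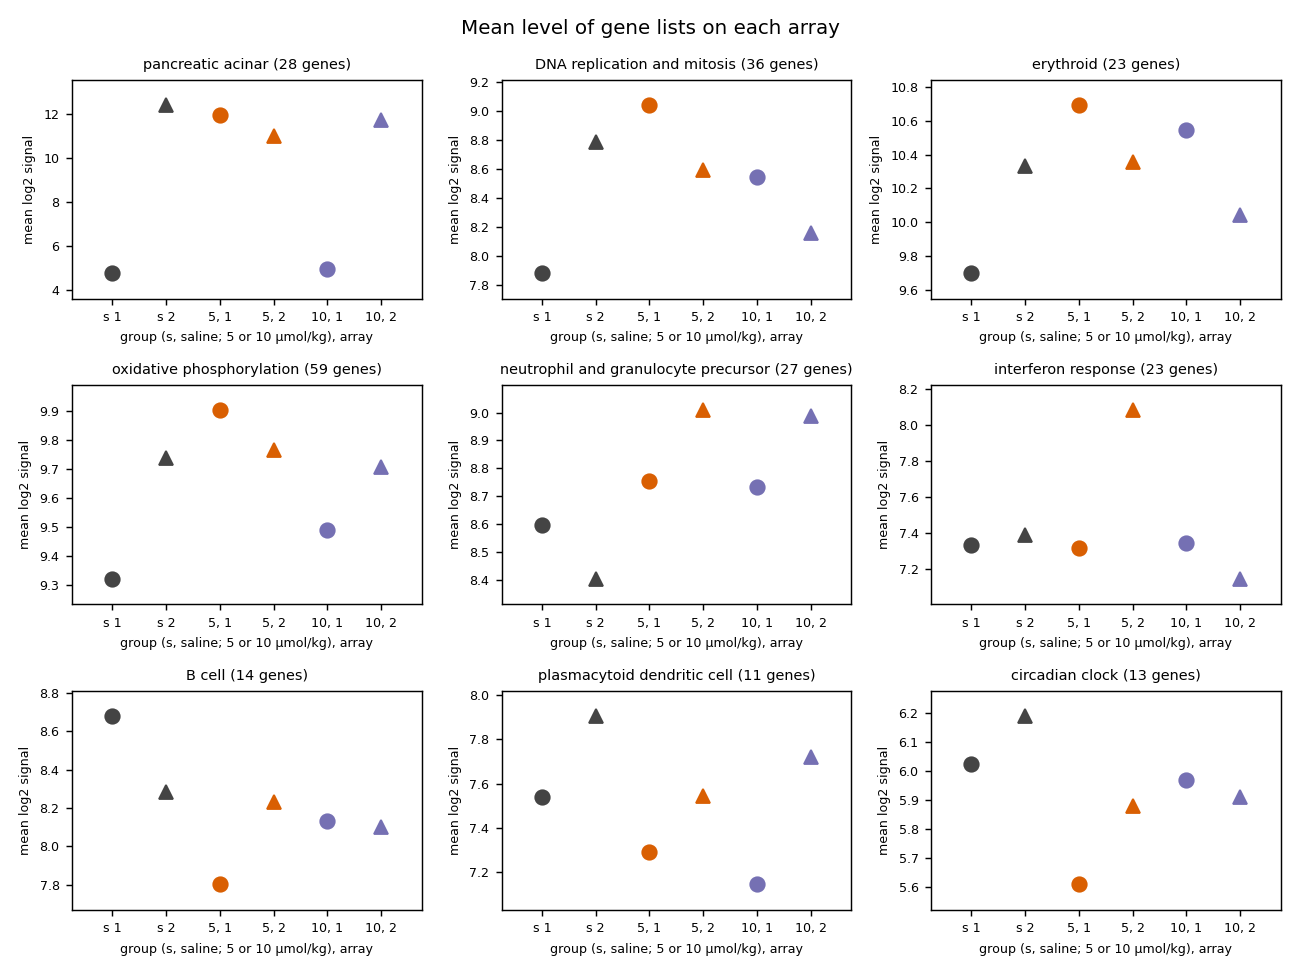
Mean normalized log2 signal of 9 gene lists (panels; vertical axes differ) on each of the 6 arrays (horizontal axis; s, saline; 5 and 10, dose in µmol/kg; then the array number), with circles for arrays 1 and triangles for arrays 2. Acinar genes read 4.77 on saline array 1 and 12.40 on saline array 2, and the circadian and B cell means are lowest on array 1 at 5 µmol/kg.

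Circadian clock genes read lower with cadmium: 12 of 13 lay below the saline mean and 7 lay apart, against 24.7% of all genes. The 7 include Npas2 and Nr1d2, which were detected on the saline arrays alone. They entered the filter only through the group where they read higher, so their lower reading with cadmium follows in part from the filter. Per2, of the repressor arm of the clock, read 6.85 and 6.84 with saline and 5.85 and 6.16 with cadmium (−0.84 ± 0.25). Nr1d2, a nuclear receptor of the clock's second loop, read 4.82 and 5.37 with saline and was not detected on either cadmium array, which makes it at least 1.26-fold lower. The saline arrays gave nearly the same level of Per2, and the list median was −0.35 with all arrays and −0.46 without saline array 1. The labels used here give the interval after injection and not the hour of the day, so the part of sampling time was not tested.

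Genes of cholesterol synthesis and uptake had 8 of 13 members above saline (median 0.14, and 0.59 over the members detected on all 4 arrays). The farnesyl diphosphate synthase Fdps read 7.95 and 8.12 with saline and 9.04 and 8.68 with cadmium (0.83 ± 0.25), and Nsdhl, a later enzyme, read 4.52 and 4.76 with saline and 5.91 and 5.62 with cadmium (1.13 ± 0.26), its probe being detected on only 1 saline array. Another probe of each gene differed in the opposite direction. Both had an unadjusted p under 0.05, as did 1 more higher member, where 4.23% of all genes were higher at that level.

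Among interferon-response genes array 2 at 5 µmol/kg stood apart, while the mean of array 1 lay close to saline. The list had 15 of 23 members above the saline mean (median 0.27), and 6 lay apart on the higher side and 2 on the lower side, against 21.1% and 24.7% of all genes. Isg15, a ubiquitin-like modifier induced by interferon, read 7.33 and 8.02 with saline and 9.02 and 9.51 with cadmium (1.59 ± 0.32), above both saline arrays on each. Usp18, the protease that removes it, read 6.88 and 7.95 with saline and 7.94 and 8.90 with cadmium, and a dimmer probe read 4.82 and 4.86 with saline and 6.03 and 6.69 with cadmium. Ifit2, which binds viral RNA, read 5.44 and 6.14 with saline and 6.32 and 6.95 with cadmium (0.85 ± 0.34). Ifit3, its partner, read 7.05 and 7.37 with saline but 7.15 and 10.07 with cadmium, and Irf7, the factor that amplifies interferon production, read 5.90 and 6.03 with saline and 6.04 and 7.19 with cadmium. For Ifit3 and Irf7 the high value came from array 2 at 5 µmol/kg alone. Array 2 read above array 1 at this dose by a median of 0.63 over the list. The mean level of the list was 7.34 and 7.39 with saline, 7.32 and 8.08 at 5 µmol/kg, and 7.35 and 7.15 at 10 µmol/kg. The median difference was −0.058 when array 2 at 5 µmol/kg was left out, and 0.61 when array 1 was. Rsad2, the brightest member, read 12.46 and 13.05 with saline and 12.61 and 12.52 with cadmium.

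The Isg15 promoter (chr4:156200769-156201068, minus strand) is shown because this gene differed on both cadmium arrays, with its interferon-stimulated response element cores in capitals.
Isg15: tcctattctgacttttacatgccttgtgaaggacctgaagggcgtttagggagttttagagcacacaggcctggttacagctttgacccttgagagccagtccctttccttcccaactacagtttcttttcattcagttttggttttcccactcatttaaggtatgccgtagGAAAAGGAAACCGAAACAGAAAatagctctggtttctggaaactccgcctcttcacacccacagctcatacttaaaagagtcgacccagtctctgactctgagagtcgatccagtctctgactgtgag
The 3 matches overlap in a run that begins 78 bases before the start site.

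**Figure D5:**
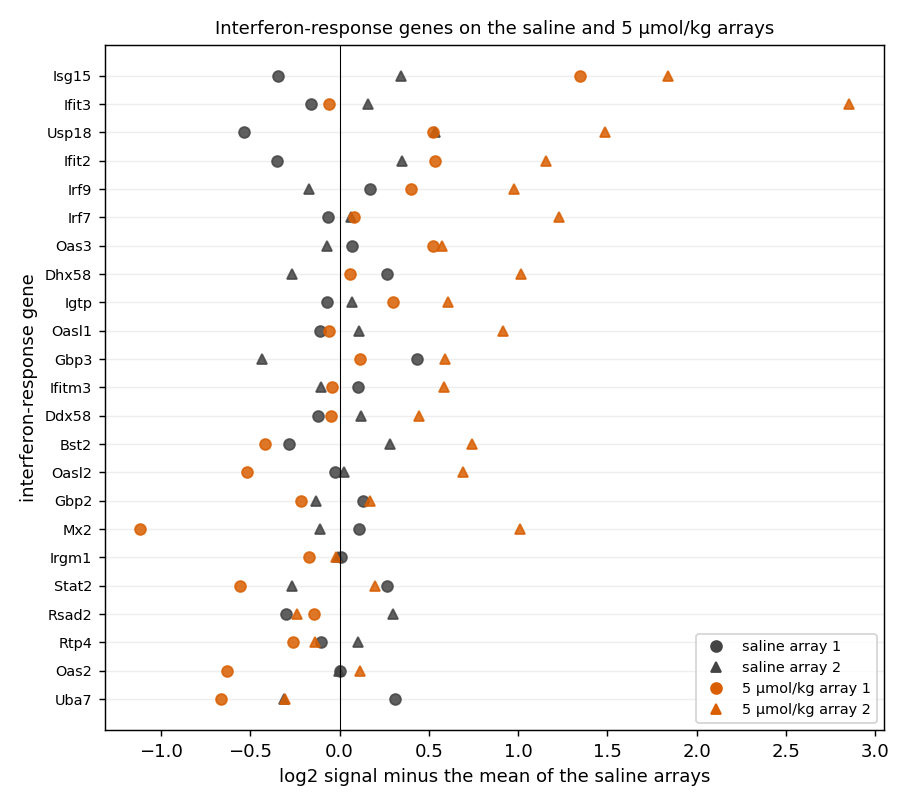
Log2 signal of the 23 measured interferon-response genes (rows) minus the mean of the saline arrays (horizontal axis), for the saline arrays (grey) and the arrays at 5 µmol/kg (orange), with circles for arrays 1 and triangles for arrays 2. Isg15 lies above both saline arrays on both cadmium arrays, while Ifit3 and Irf7 are high on array 2 alone.

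Genes with several probes gave a check within the arrays. Of 3828 genes with 2 or more member probes, the probes of 2205 (57.6%) shared the sign of the difference. The share was 61.9% among 1894 such genes whose brightest probe separated the groups and 71% among 421 whose brightest probe had an unadjusted p under 0.05. Over all 10823 genes the brightest probes were higher and lower at that level in 4.23% and 4.49% of cases, and the 5401 further probes, which belong to the genes with several, in 8.94% and 3.09%. Probes of a gene share the RNA and are no replicates. Members at the edge of the detection filter were dim: the 2090 probes detected on exactly 2 arrays had a median level of 4.66, and the 3481 detected on 1 array, which were left out, had 4.56, against 7.08 for the 12941 detected on all 6.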

How the data were processed

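Each sample was measured on 1 Illumina bead array. The authors deposited linear probe intensities (mean over beads) in a table whose name calls them not normalized. When each array was sorted, however, values of equal rank lay within 0.243 units across the 6 arrays, and the lowest was −20.15. Values below 0 and shared ranks are what background subtraction and quantile normalization leave, but no label or header records such a step, nor the software. A deposited detection p-value accompanies each intensity. The deposited series matrix held identical intensities for its 45279 probes.

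Intensities were background-corrected, quantile-normalized and put on a log2 scale by neqc (offset 16; limma 3.58.1, R 4.3.3). The offset understates fold changes of dim genes. Groups came from the sample titles. A model with a mean per group was fitted to 18960 probes on all 6 arrays (3 residual and 3.78 prior degrees of freedom), with Benjamini-Hochberg adjustment of the p-values for 5 µmol/kg against saline over all these probes. The fit was tested on simulated data. Symbols came from the platform annotation (1 symbol for 34885 probes, several for 18, none for 10378) and a RefSeq table of GRCm38.p6. Precision is limited by having 2 arrays per group.

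The members, the 31 gene lists and the rules were chosen with earlier results of these data known. Named genes were the 12 in each direction with the widest separation, the 5 in each direction detected in only 1 group with the largest bound, the 2 brightest and the 2 of smallest p in the direction of each list's median (not all are printed), and Mt1, Mt2 and Hmox1. Predicted names were passed over. Fech, Cpox, Ifit3, Irf7, Usp18, Ctsg, Prtn3, Retnlg, Car1, Cdk1, Tnf, Klk1, Spib, Kdm5d, Npas2 and Cr2 were chosen after their values were seen. Other settings changed the background correction, normalization, filter, unit of the fit, arrays, variance model and threshold, or added a replicate block or the mean level of the acinar list as a covariate, and each array was left out in turn.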

Additional observations from a re-analysis of the deposited data

How the results depend on the processing

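No probe passed an adjusted p of 0.05 in any of the 15 other settings, nor one of 0.1. Without the detection filter, the counts at an unadjusted p under 0.05 were 1848 higher and 1422 lower of 45281 probes, 9373 and 8863 probes had cadmium arrays above or below both saline arrays, and 3805 genes had probes of 1 sign. With 1 probe per gene, 621 were higher and 2953 lay above. The lower count was 1276 with only the 4 arrays compared. Leaving out 1 array, the higher count ran from 163 to 1330, the lower count from 77 to 1789, the probes above from 6374 to 8272 and those below from 5998 to 7898, since 1 array separates more easily than 2.

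Of the 90 genes examined under these settings, 81 kept the sign of their difference. On the deposited values with no further correction the log2 difference of Mt2 was 0.0057. With the acinar covariate the log2 difference of Cd74 was 0.18 and the log2 difference of Cela1 was −0.045. Leaving out 1 array, Mt1 ran from −0.87 to 0.82, Mt2 from −0.50 to 0.45, Cd74 from −0.66 to 0.46, Slc4a1 from −0.17 to 0.041, Amy2a5 from −0.095 to 7.60, Cela1 from −0.96 to 5.10, Rsad2 from −0.49 to 0.11, H2-Ab1 from −0.21 to 1.39 and Ifit3 from −0.060 to 2.85. The cause was not tested.

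The arrays share only a replicate number. Same-numbered deviations of the saline and 5 µmol/kg arrays correlated at −0.26 across probes. The replicate block gave 1053 probes higher and 1162 lower at an unadjusted p under 0.05, and with the numbers of the cadmium arrays exchanged, a setting chosen after seeing the data, 1524 higher and 1686 lower. Neither changed a call. Of the 31 list medians, 18 moved by more than the spread between replicates in at least 1 setting.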

Other observations

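Genes of the exocrine pancreas had the largest list median between 5 µmol/kg and saline, and its sign turned when saline array 1 was left out. The list median was 3.35, with 26 of 28 members above the saline mean, and −0.92 without that array, with 0 of 28 above. The amylase Amy2a5 read 6.69 and 14.39 with saline and 14.24 and 14.34 with cadmium, and the elastase Cela1 read 8.0 and 14.06 against 13.47 and 12.73. None of the 28 genes had an unadjusted p under 0.05 in limma's test. Of 5 genes of pancreatic islets and ducts, 3 lay above saline (median 0.053).

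The stress list of the unfolded protein response had 10 of 18 members above saline (median 0.012), and the glucocorticoid response list 6 of 15 (median −0.027). Of 8 plasma cell genes 2 lay above saline (median −0.22), and of 4 adipocyte and mesothelium genes 1 did (median −0.32). Of 8 genes of mast cells, basophils and eosinophils 6 lay above saline (median 0.29), but 4 did without saline array 1 (median −0.054).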
